A study of Caenorhabditis elegans with 36 samples.

Results

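Mitochondrial ribosomal proteins were followed across 6 groups of *C. elegans* libraries. The members were the protein-coding genes whose Ensembl WBcel235 symbol is mrpl- (large subunit) or mrps- (small subunit) followed by a number and which reached a minimum of 10 counts in 6 or more of the 36 libraries. Of 70 such symbols, *mrpl-42* was not analysed here, and the other 69 all passed with at least 10 counts in every library, so that the filter removed none. They comprised 40 *mrpl* and 29 *mrps* genes among 46093 genes in the table, of which 17457 passed the same filter.

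Mitochondria keep a small genome of their own, and in animals every protein that it encodes is made by a mitochondrial ribosome whose protein subunits are all encoded in the nucleus, translated in the cytosol and imported. Many of these proteins descend from bacterial ribosomal proteins and carry the matching number, whereas others were added in mitochondria and have no bacterial counterpart. In worms, lowering one of them, *mrps-5*, is known to lengthen life and to activate the mitochondrial unfolded protein response, the stress pathway with which the study was concerned.

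PolyA RNA of whole worms was sequenced, taken on day 1 of adulthood and labelled as a prefertile young adult stage, with 6 biological replicates a group. The groups were *eat-2(ad1116)*, *ife-2(ok306)*, *osm-5(p813)* and N2 wild type (WT) with a labelled temperature of 20 °C, and *glp-1(e2141)* and N2 wild type with a labelled temperature of 25 °C, although the growth description gives 20 °C for all. All were grown on NGM plates with OP50 bacteria. The strains served as models of extended life through reduced feeding (*eat-2*), reduced translation (*ife-2*), reduced chemosensation (*osm-5*) and germ line loss (*glp-1*), each represented by a single strain. The wild type at 25 °C was the control for *glp-1*, the wild type at 20 °C was the control for the other mutants, and comparing both wild types gave the difference between the labelled temperatures.

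The libraries held 35524715 to 55878280 counts. The *ife-2* transcript and the germ line markers went against the labels, while the *osm-5* transcript was low under more than 1 label. The *ife-2* transcript had 60.7 to 77.6 CPM (counts scaled to a common library size) in the libraries labelled *ife-2* but 3.15 to 3.88 in those labelled *eat-2*, against 22.6 to 24.9 in WT at 20 °C. The *osm-5* transcript was lower in the libraries labelled *osm-5* (0.331 to 1.21) than in WT at 20 °C (2.65 to 3.1), and about as low in WT at 25 °C (0.704 to 1.40), while those labelled *glp-1* held 4.30 to 5.94. The 18 germ line markers summed to 11.6 to 16.2 CPM in the libraries labelled *ife-2*, against 2212 to 2713 in WT at 20 °C. In those labelled *glp-1*, the strain described as lacking a germ line, they summed to 1783 to 2473 CPM, against 2380 to 3145 in WT at 25 °C. Groups are therefore named by label throughout. In addition, replicate 3 labelled *osm-5* stood apart, with 0.692% of its counts on the members where the other 35 libraries had 0.136% to 0.316%, and the counts for libraries labelled *osm-5* are given with and without it.

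The members lay on all autosomes and none on X, which held 14.3% of the protein-coding genes that passed the filter. Chromosome III carried 22 of the 69 (31.9%, against 14.8% of those genes), chromosome I 15, II 12, IV 10 and V 10. They are short genes, with 309 to 2164 exon bases and a median of 763. Their numbers place 41 among the proteins with a bacterial counterpart and 28 among those specific to mitochondria; the classes follow the number in the symbol, although human MRPS24 and MRPL47 are now known to have bacterial counterparts, and the mammalian counterparts of *mrps-30* and *mrps-18A* sit in the large subunit.

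Members also tended to lie close behind another gene. A gene on the same strand ended within 500 bases upstream of 26 of the 69 members (37.7%), against 3033 of 16103 protein-coding genes that passed the filter (18.8%). In worms such tight spacing is typical of operons, in which several genes share a promoter. For example, *mrpl-4* starts 105 bases after *mrps-2* on chromosome V. Among the 26 members with such a neighbour 24 were down-regulated in libraries labelled *glp-1* and 19 up-regulated in those labelled *eat-2*, and among the 43 without one 42 and 33. For 19 members, some exon bases are shared with another gene, *mrpl-44* with *mccc-2* on the same strand among them, and the sources used here do not give the strand setting of the counting, so the counts of these members are less certain.

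The members were expressed at rather even levels. Per kilobase of exon, and averaged over all 36 libraries, the highest were *mrpl-36* (215 CPM per kilobase), *mrpl-44* (145) and *mrps-24* (129), and the lowest *mrps-31* (16.2), *mrpl-45* (18.7) and *mrpl-46* (22.8). The places of *mrpl-36* and *mrps-24* came from 1 library. Averaged over the 35 libraries other than replicate 3 labelled *osm-5*, the levels ran from 16.3 CPM per kilobase for *mrps-31* to 146 for *mrpl-44*, a range of 8.95-fold, and the members' quartiles were 32.9 and 43.6. The mammalian counterpart of *mrpl-44* resembles RNase III enzymes. In those 35 libraries it was followed by *mrpl-12* (70.7), whose bacterial counterpart forms the stalk that recruits translation factors, and by the small-subunit gene *mrps-14* (63.0).

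The summed level of the 69 members set the groups in an order. It was highest in WT at 25 °C, with 2793, 3049 and 3255 CPM as the lowest, median and highest library. The libraries labelled *eat-2* had 2742, 2856 and 3072 CPM, and those labelled *osm-5* had 2723, 2814 and 16236 CPM, with the highest of the other 5 at 2853. These 3 groups overlapped one another, and all of their libraries were above WT at 20 °C, which had 2343, 2426 and 2474 CPM. Below WT at 20 °C were the libraries labelled *glp-1* with 1938, 2094 and 2200 CPM and those labelled *ife-2* with 1762, 1811 and 1954 CPM, and these last groups overlapped slightly. By member, the median was highest in WT at 25 °C for 55 of 69 and lowest in libraries labelled *ife-2* for 57. The order depended in part on the scaling. With libraries scaled by their totals alone, the sum in those labelled *osm-5* started at 2693 CPM and overlapped WT at 20 °C (2604 to 2855). The median sum was then 2997 CPM in libraries labelled *eat-2* and 2975 in WT at 25 °C. In bulk samples, fewer cells of a type and less RNA per cell cannot be told apart.

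**Figure D1:**
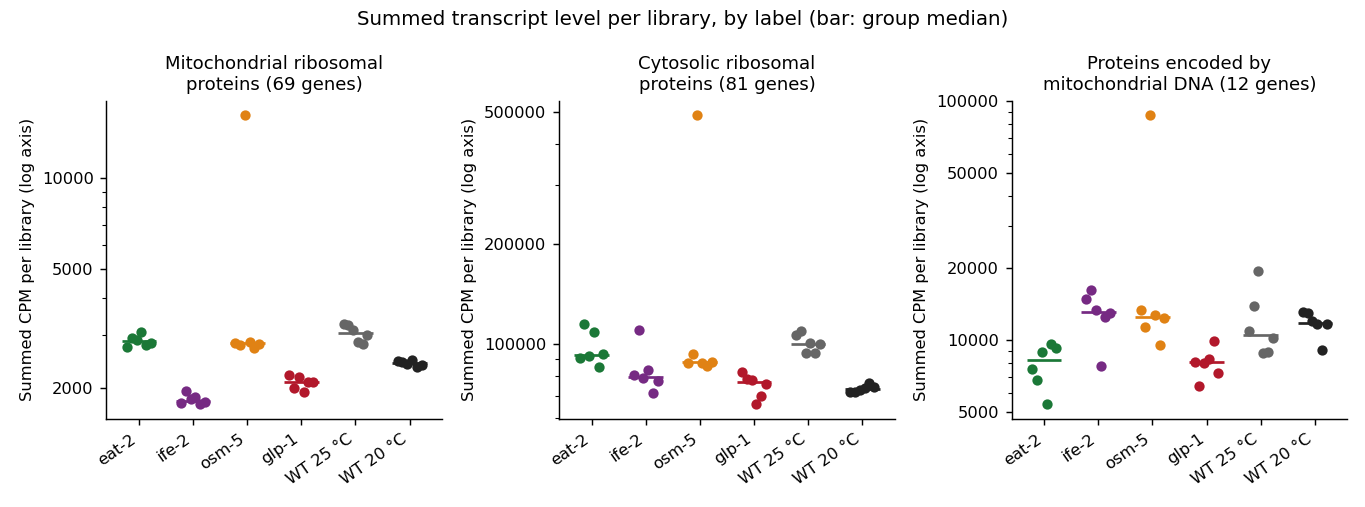
Summed CPM per library (log axis) of the 69 mitochondrial ribosomal protein genes, the 81 cytosolic ones and the 12 genes encoded by mitochondrial DNA, with 1 point per library, by labelled group, and bars for group medians. Replicate 3 labelled *osm-5* is highest in each panel (16236 CPM for the mitochondrial ribosomal proteins); for these genes all other libraries lie between 1762 and 3255, with those labelled *glp-1* and *ife-2* below WT at 20 °C.

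In the libraries labelled *eat-2*, mitochondrial ribosomal protein genes rose together. Of the 69 members, 52 were up-regulated and none down-regulated (edgeR quasi-likelihood test, Benjamini-Hochberg adjusted p below 0.01), with a median log2 fold change of 0.26, where all genes had a median of 0.01. Among all 16627 genes tested, 18.4% were up-regulated and 12.8% down-regulated. At an unadjusted p below 0.05, 59 members were higher and 0 lower, and DESeq2 called 52 and 0. Here and below, shares of all genes called are not given for unadjusted p, DESeq2, totals alone or 1 model of all libraries. In 51 members the 6 libraries labelled *eat-2* were all above the 6 of WT at 20 °C, as for 13.0% of all genes. With libraries scaled by their totals alone, which moved the median of all genes to -0.11, 21 members were up-regulated, and in 1 model of all 36 libraries 18 were, or 51 without replicate 3 labelled *osm-5*.

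The 4 members with the largest increases were *mrps-23*, *mrps-7*, *mrpl-55* and *mrpl-12*. *mrps-23* (WBGene00014224, chromosome III, 9523121 to 9523672), a small-subunit protein specific to mitochondria, had 19.4, 20.3 and 20.7 CPM as the lowest, median and highest of the libraries labelled *eat-2*, against 13.2, 13.9 and 16 in WT at 20 °C (log2 fold change 0.52 ± 0.0579 SE, edgeR adjusted p = 2.28e-05, n = 6 each). CPM are rescaled within each comparison, so that the wild-type levels differ a little between them. *mrps-7* (WBGene00013324, chromosome IV, 14766773 to 14767730), whose bacterial counterpart starts the assembly of the head of the small subunit, had 31.9, 34.0 and 35 CPM in libraries labelled *eat-2*, against 22.4, 24.3 and 25.6 (0.47 ± 0.0484, edgeR adjusted p = 1.17e-05). *mrpl-12* (WBGene00012361, chromosome III, 10707761 to 10708521) had 56.0, 59.3 and 65.3 CPM in libraries labelled *eat-2*, against 42, 43.4 and 47.2 (0.47 ± 0.053, edgeR adjusted p = 2.77e-05). The groups did not overlap for any of these genes, nor for *mrpl-55* (0.47), which is specific to mitochondria. *mrps-5* itself (WBGene00008452, chromosome V, 12563487 to 12565801) rose less, with 88.7, 90.6 and 92.9 CPM in libraries labelled *eat-2*, against 78.5, 80.5 and 81.2 (0.18 ± 0.0354, edgeR adjusted p = 0.00138).

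Both subunits took part, with 27 of 40 large-subunit (median log2 fold change 0.24) and 25 of 29 small-subunit members (0.29) up-regulated. So did both origins, with 33 of 41 members that have a bacterial counterpart and 19 of 28 specific to mitochondria. Of the 17 members not called, *mrpl-48* (-0.06) had the lowest fitted value. The interquartile range of the members' log2 fold changes was 0.173, against 0.583 for all protein-coding genes tested. The filter admitted genes with fewer counts than any member, and the sets were not matched in expression level. Whether the members' range was narrow for genes of their level was therefore not tested. The summed oocyte markers were 1896 to 7168 CPM in libraries labelled *eat-2*, against 5395 to 8938 in WT at 20 °C. All 15 had a negative log2 fold change and 2 passed the test, while all 3 muscle markers were up-regulated. The part of these markers in the members' change was not tested.

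**Figure D2:**
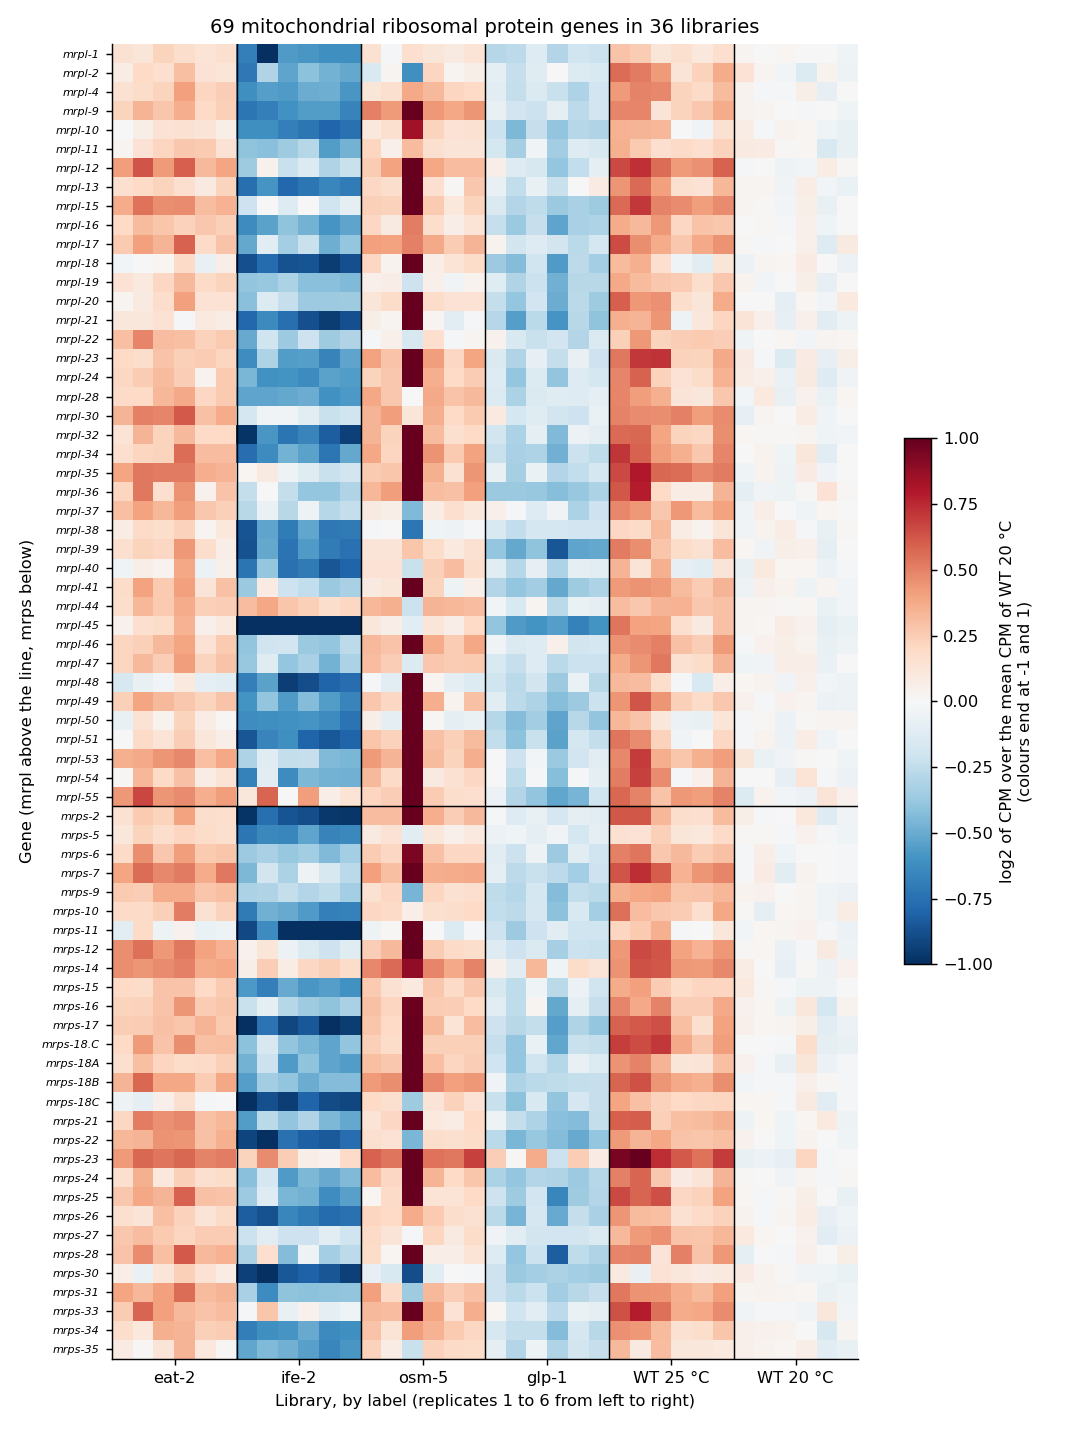
Level of each of the 69 members (1 line per gene, *mrpl* above *mrps*) in each of the 36 libraries (columns, by labelled group), as log2 of CPM over the mean of WT at 20 °C; red is higher, blue is lower, and colours end at -1 and 1. Libraries labelled *eat-2* and WT at 25 °C are mostly red, those labelled *ife-2* and *glp-1* mostly blue, and replicate 3 labelled *osm-5* is a column of its own.

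In the libraries labelled *ife-2*, most members were lower than in WT at 20 °C. Of the 69, 52 were down-regulated and 4 up-regulated, with a median log2 fold change of -0.35, where all genes had a median of 0.17. This comparison had the broadest changes, with 40.9% of 16636 genes down-regulated and 44.1% up-regulated. The down-regulated share of the members, 52 of 69, stands against the first of these. In 47 members every library labelled *ife-2* was below every WT library, and in 2 above it, against 39.2% and 38.4% of all genes. The up-regulated calls depended on the tool: DESeq2 called 0 up-regulated and 64 down-regulated. In 1 model of all 36 libraries 33 were down-regulated, and 59 without replicate 3 labelled *osm-5*; with totals alone 66 were, where the median of all genes was -0.35.

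The largest decrease was in *mrpl-45* (WBGene00022493, chromosome III, 1196389 to 1202008), whose mammalian counterpart sits at the exit of the ribosomal tunnel and anchors the ribosome to the inner membrane. It had 19.7, 20.6 and 21.4 CPM in libraries labelled *ife-2*, against 38.6, 40.9 and 42.4 in WT at 20 °C (log2 fold change -0.97 ± 0.0471, edgeR adjusted p = 1.34e-11, n = 6 each). *mrps-11* (WBGene00012244, chromosome V, 12493239 to 12494622), whose bacterial counterpart forms the platform of the small subunit, had 19.7, 21.2 and 26.8 CPM in libraries labelled *ife-2*, against 38.5, 40.2 and 40.4 (-0.85 ± 0.0689, edgeR adjusted p = 8.97e-09). *mrps-30* had 28.0, 38.9 and 42.3 CPM in libraries labelled *ife-2*, against 64.6, 67.3 and 70.8 (-0.83 ± 0.0818, edgeR adjusted p = 9.25e-08). The groups were apart for all of these, as they were for *mrps-17*, a counterpart of a bacterial protein that binds the ribosomal RNA early (-0.81). *mrps-5* had 45.9, 47.0 and 52.8 CPM in libraries labelled *ife-2*, against 68.1, 69.8 and 70.4 (-0.54 ± 0.0489, edgeR adjusted p = 3.7e-08).

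The 4 members that went the other way were *mrpl-44*, *mrpl-55*, *mrps-23* and *mrps-14*. *mrpl-44* (WBGene00008514, chromosome III, 9084310 to 9089375) had 260.4, 274 and 291 CPM in libraries labelled *ife-2*, against 209, 213 and 217 in WT at 20 °C (0.37 ± 0.0512, edgeR adjusted p = 4.68e-06). *mrps-14* had 39.5, 44.2 and 45.6 CPM in libraries labelled *ife-2*, against 33.6, 35.5 and 37.3 (0.28 ± 0.0532, edgeR adjusted p = 0.000152). These groups did not overlap, whereas those of *mrpl-55* (0.34) and *mrps-23* (0.32) did. All 4 turned negative when libraries were scaled by their totals alone, to values between -0.24 and -0.15. Among the 13 members not called were *mrpl-12* (-0.09), *mrps-7* (-0.13) and *mrps-12* (0.05), whose bacterial counterpart lies at the decoding centre.

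Large-subunit members were down-regulated in 31 of 40 cases (median log2 fold change -0.42) and small-subunit members in 21 of 29 (-0.32). The spread among members was wider than in the libraries labelled *eat-2*, with an interquartile range of 0.389. Protein-coding genes as a whole, again not matched to the members in expression level, spread over 2.62. In this comparison all 18 germ line markers were down-regulated, with 5 of them at 0 counts in at least 1 library and none at 0 in every library, as were 13 of 15 oocyte and all 14 sperm markers. All 3 intestine, 3 muscle and 3 neuron markers were up-regulated. Whether this difference in tissue markers bears on the members' levels was not tested.

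In the libraries labelled *osm-5*, 10 members were up-regulated and none down-regulated, where 7.01% and 10.9% of 16587 genes were called in those directions. The median log2 fold change was 0.77 (all genes 0.05), and it rested on replicate 3. Without that library 51 members were up-regulated and 0 down-regulated, where 3567 and 3925 of 16701 genes were called in those directions. The median was then 0.22 (all genes -0.02), and all 10 earlier calls stayed called. With all 6 libraries, 54 members were higher and 0 lower at an unadjusted p below 0.05, and DESeq2 called 21 and 0. In 44 members every library labelled *osm-5* was above every WT library, as for 13.5% of all genes; without replicate 3 these were 54 and 19.2%. The 10 calls fell to 0 with totals alone, with a median of all genes of -0.27. They numbered 5 and 6 without *osm-5* replicates 4 and 2, and 4 to 6 without any 1 of the WT libraries.

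*mrps-14* led the called members, with 48.6, 53.4 and 77.4 CPM in libraries labelled *osm-5*, against 35.1, 37.1 and 38.9 in WT at 20 °C (log2 fold change 0.62 ± 0.102, edgeR adjusted p = 0.00078, n = 6 each). *mrpl-17* had 26.2, 29.2 and 34.8 CPM in libraries labelled *osm-5*, against 20.6, 21.7 and 23.4 (0.44 ± 0.0695, edgeR adjusted p = 0.00061). *mrpl-30* had 25.0, 27.3 and 30 CPM in libraries labelled *osm-5*, against 20.4, 21.9 and 22.3 (0.34 ± 0.0559, edgeR adjusted p = 0.000809). The groups did not overlap for these, nor for *mrps-34* (0.33) or *mrps-5*. *mrps-5* had 75.3, 79.0 and 83.3 CPM in libraries labelled *osm-5*, against 71.1, 72.8 and 74.4, and did not pass the test (0.11 ± 0.0437, edgeR adjusted p = 0.0622). Without replicate 3, the largest value was that of *mrps-23* (0.59, edgeR adjusted p = 1.51e-06).

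Markers of other tissues moved in these libraries too. Without replicate 3, 9 of 14 sperm markers (median log2 fold change 0.45) and 7 of 18 germ line markers (0.07) were up-regulated, 1 germ line marker was down-regulated, and 2 of 15 oocyte markers were up-regulated. Of the 3 epidermis markers 2 were down-regulated and 1 up-regulated (median -3.28), and 2 of 3 neuron and 1 of 3 muscle markers were down-regulated. With all 6 libraries 3 sperm markers were up-regulated and no germ line marker was called. The part of these markers in the members' change was not tested.

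Replicate 3 did not raise the members evenly. *mrpl-36*, whose bacterial counterpart is the smallest ribosomal protein, was at 2106 CPM there, 129-fold the median of the other 5 libraries (16.4), and *mrps-24* was at 1968 CPM, 57.7-fold. 36 members were more than 2-fold above that median and 20 below it, down to 0.637-fold for *mrps-30*. Of the 35 members with up to 763 exon bases, 27 were more than 2-fold up in replicate 3, against 9 of the 34 longer members. The Spearman correlation of the log2 fold change with exon length was -0.48 over all protein-coding genes tested and -0.78 over the 69 members, and -0.16 and -0.25 without replicate 3. These are correlations across genes, which share libraries and are not independent replicates.

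**Figure D3:**
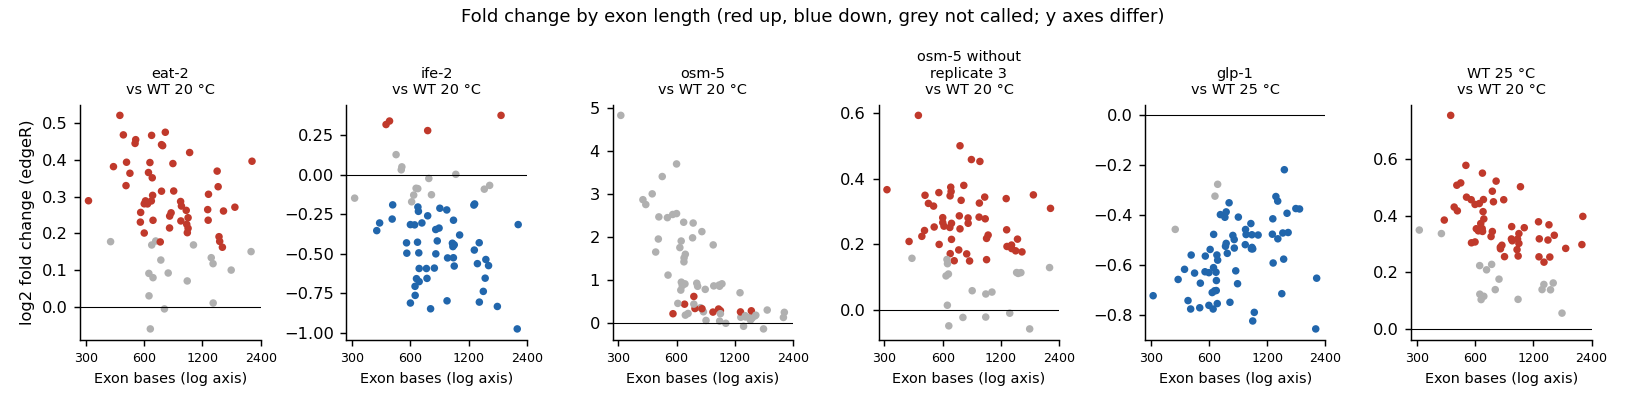
Log2 fold change of each member (points: red up-regulated, blue down-regulated, grey not called) against its exon bases (log axis), 1 panel per comparison plus 1 for libraries labelled *osm-5* without replicate 3; the y axes differ. With replicate 3, short members were highest in libraries labelled *osm-5* (Spearman correlation -0.78 over 69 members), and the other panels lie between -0.45 and 0.39.

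In the libraries labelled *glp-1*, nearly the whole set was down-regulated against WT at 25 °C. 66 of 69 members fell and 0 rose, with a median log2 fold change of -0.54, where all genes had a median of 0.02 and 10.9% of 16513 genes were down-regulated and 12% up-regulated. At an unadjusted p below 0.05 all 69 were lower and 0 higher, and DESeq2 called 68 and 0. In 66 members every library labelled *glp-1* was below every WT library, as for 9.72% of all genes. The reference, WT at 25 °C, was itself above WT at 20 °C for these genes. Set against WT at 20 °C, the members' median log2 difference ran from -0.35 to -0.14 in libraries labelled *glp-1*. In WT at 25 °C it ran from 0.20 to 0.48 (1 scaling over the 36 libraries). In 1 model of all 36 libraries 38 were down-regulated, and 69 without replicate 3 labelled *osm-5*. The 3 members not called were *mrpl-40* (-0.28), *mrpl-48* (-0.32) and *mrpl-54* (-0.46).

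As in the libraries labelled *ife-2*, *mrpl-45* had the largest decrease, with 28.6, 31.1 and 35.6 CPM in libraries labelled *glp-1*, against 49.4, 57.8 and 65.9 in WT at 25 °C (log2 fold change -0.86 ± 0.0825, edgeR adjusted p = 6.31e-06, n = 6 each). *mrpl-39*, whose mammalian counterpart is related to a tRNA synthetase, had 19.8, 25.2 and 27.6 CPM in libraries labelled *glp-1*, against 39.9, 43.3 and 50.4 (-0.82 ± 0.0935, edgeR adjusted p = 2.36e-05). *mrpl-15* had 40.0, 41.7 and 47.3 CPM in libraries labelled *glp-1*, against 69.2, 71.6 and 82.0 (-0.79 ± 0.066, edgeR adjusted p = 1.89e-06). The groups were well apart for each of these, and for *mrps-25* (-0.78). *mrps-5* fell least among the called members, with 69.7, 75.9 and 77.8 CPM in libraries labelled *glp-1*, against 85.0, 86.4 and 91.4 (-0.22 ± 0.0535, edgeR adjusted p = 0.00637).

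All 29 small-subunit members (median -0.58) and 37 of 40 large-subunit members (-0.53) were down-regulated, as were all 41 with a bacterial counterpart and 25 of 28 specific to mitochondria. The interquartile range of the members was 0.192, against 0.583 for protein-coding genes, which were again not matched to them in expression level. In these libraries 6 of 18 germ line and 6 of 14 sperm markers were down-regulated, and whether that bears on the members was not tested.

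**Figure D4:**
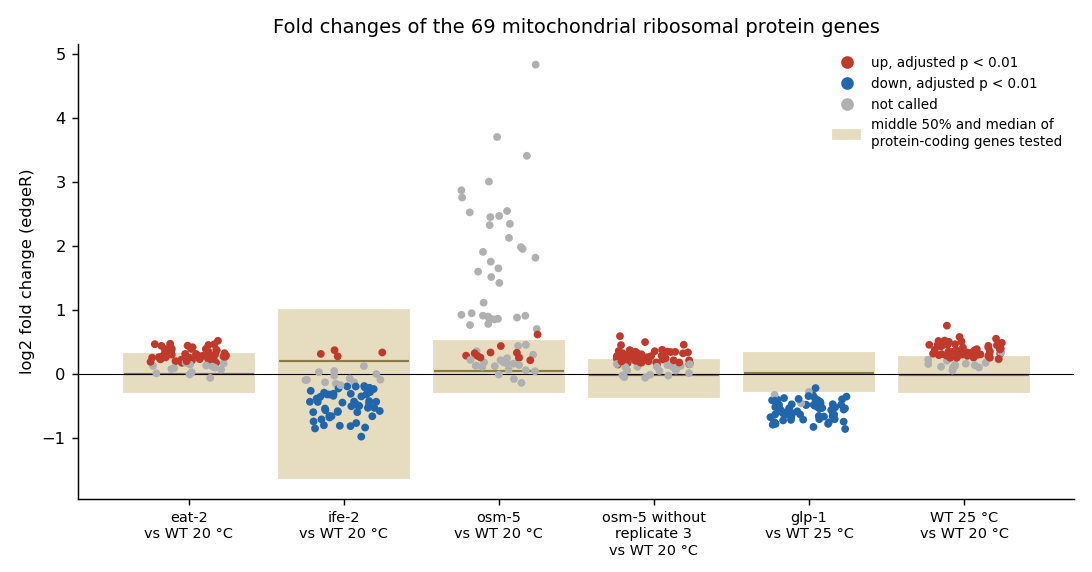
Log2 fold changes (edgeR) of the 69 members, 1 point per gene and 1 column per comparison, with red for up-regulated, blue for down-regulated and grey for not called; boxes and lines give the quartiles and median of the protein-coding genes tested. Members of libraries labelled *eat-2* and of WT at 25 °C centre on 0.26 and 0.33, those of libraries labelled *ife-2* and *glp-1* on -0.35 and -0.54, and those of libraries labelled *osm-5* spread furthest unless replicate 3 is left out.

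Between the wild types, the members were higher at a labelled 25 °C. 53 of 69 were up-regulated and 0 down-regulated relative to WT at 20 °C, with a median log2 fold change of 0.33 (all genes -0.02), where 13.0% of 16506 genes were up-regulated and 11% down-regulated. At an unadjusted p below 0.05, 63 were higher and 0 lower, and DESeq2 called 56 and 0. In 54 members all libraries at 25 °C were above all at 20 °C, as for 10.2% of all genes. With totals alone, which moved the median of all genes to -0.18, 16 were up-regulated, and in 1 model of all 36 libraries 27, or 62 without replicate 3 labelled *osm-5*.

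*mrps-23* had the largest increase, with 20.3, 22.5 and 28.1 CPM in WT at 25 °C, against 13.0, 13.6 and 15.8 in WT at 20 °C (log2 fold change 0.76 ± 0.0923, edgeR adjusted p = 3.57e-05, n = 6 each). *mrpl-35* had 23.5, 24.4 and 28.3 CPM in WT at 25 °C, against 16.1, 16.9 and 17.5 (0.58 ± 0.0635, edgeR adjusted p = 1.46e-05). *mrpl-12* had 57.0, 63.2 and 68.9 CPM in WT at 25 °C, against 41.2, 42.7 and 46.4 (0.55 ± 0.0604, edgeR adjusted p = 1.46e-05). These groups did not overlap, nor did those of *mrps-7* (0.52). *mrps-5* had 84.5, 85.8 and 90.8 CPM in WT at 25 °C, against 77.2, 79.1 and 80.2, without overlap, and did not pass the test (0.14 ± 0.0437, edgeR adjusted p = 0.0231). The subunits had like shares, with 28 of 40 large-subunit (median 0.32) and 25 of 29 small-subunit members (0.35) up-regulated. 6 of 14 sperm markers and 1 of 3 muscle markers were up-regulated in WT at 25 °C as well. All 15 oocyte markers had a negative log2 fold change (median -0.40), and none of them passed the test. The part of these markers in the members' change was not tested.

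**Figure D5:**
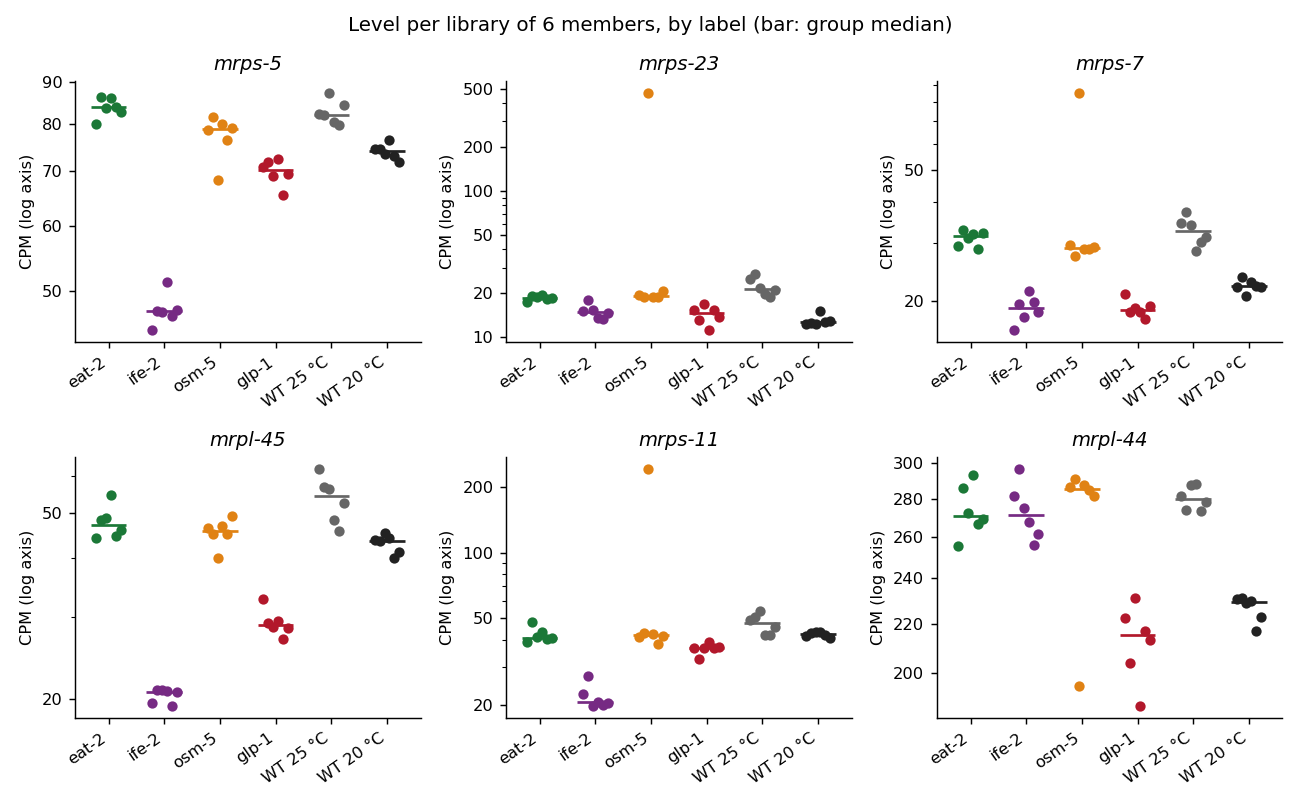
Level of *mrps-5*, *mrps-23*, *mrps-7*, *mrpl-45*, *mrps-11* and *mrpl-44* in every library (CPM, log axis), by labelled group, with bars for group medians. *mrpl-45* and *mrps-11* are lowest in libraries labelled *ife-2*, and replicate 3 labelled *osm-5* is far above its group for *mrps-23*, *mrps-7* and *mrps-11* and below it for *mrpl-44*.

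Every member was called in at least 1 of the 5 comparisons. That of libraries labelled *ife-2* alone called 44.1% of all genes up-regulated and 40.9% down-regulated, so this does not set the members apart. The comparisons of libraries labelled *eat-2*, of those labelled *osm-5* or *ife-2* and of WT at 25 °C share the WT libraries at 20 °C, and the comparison of those labelled *glp-1* shares the WT libraries at 25 °C with the last. The comparisons of libraries labelled *glp-1* and *ife-2* share no library, and the members' log2 fold changes in them were only loosely related (Pearson -0.19, Spearman -0.26, n = 69). Between libraries labelled *eat-2* and *glp-1*, which also share none, members that rose more in the first fell more in the second (Pearson -0.54, Spearman -0.55). These values describe genes that differ in exon length and depth. They are not tests.

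Genes that work with the mitochondrial ribosome gave other counts. Of the 12 genes encoded by mitochondrial DNA, whose messages this ribosome translates, 6 were down-regulated and 0 up-regulated in libraries labelled *eat-2* (median log2 fold change -0.39), with ATP6 at -1.39 and ND4 at -1.29. In libraries labelled *ife-2* 5 were up-regulated and 1 down-regulated (0.31), and in those labelled *glp-1* 3 were down-regulated and all 12 were negative (-0.56). In WT at 25 °C 1 was down-regulated (-0.02), and in libraries labelled *osm-5* none was called (2 up-regulated and 1 down-regulated without replicate 3). The members' summed level was also set against the summed mitochondrial DNA-encoded level. This ratio was 28.9%, 34.4% and 57.2% (lowest, median and highest) in libraries labelled *eat-2* and 12%, 13.8% and 24.1% in those labelled *ife-2*. WT at 20 °C had 18.7%, 20.3% and 25.8%. The ratio was 21.3%, 27.2% and 31.1% in libraries labelled *glp-1*, against 15.9%, 29.7% and 32.2% in WT at 25 °C.

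Mitochondrial translation factors and tRNA synthetases, 15 genes, had the members' direction, by their median, only in libraries labelled *ife-2* and *glp-1*. In those labelled *glp-1* 14 were negative (median -0.23). In libraries labelled *eat-2* 9 were negative (-0.004), in those labelled *osm-5* 10 (-0.05) and in WT at 25 °C 11 (-0.10). *dap-3*, which belongs to the mammalian small subunit but lies outside the naming rule, was up-regulated in libraries labelled *eat-2* (0.28) and in WT at 25 °C (0.30) and down-regulated in those labelled *glp-1* (-0.46). In libraries labelled *ife-2* all 15 were down-regulated (median -0.96), *rars-2*, an arginyl-tRNA synthetase, by -2.33 on the log2 scale. Elsewhere fewer were called: 2 up-regulated and 1 down-regulated in libraries labelled *eat-2*, 0 and 0 in those labelled *osm-5* (1 and 4 without replicate 3), 0 and 4 in those labelled *glp-1*, and 1 and 1 in WT at 25 °C. Of 5 genes for replication and transcription of mitochondrial DNA, 4 were down-regulated and 1 up-regulated (0.84) in libraries labelled *ife-2*. The DNA polymerase gene *polg-1* (-2.72) and the RNA polymerase gene *rpom-1* (-1.78) were among the 4. Up- and down-regulated genes numbered 0 and 1 in libraries labelled *eat-2* and 0 and 3 in those labelled *osm-5*. They numbered 0 and 1 in libraries labelled *glp-1* and 1 and 2 in WT at 25 °C.

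The cytosolic ribosomal proteins, which build the other ribosome of the cell, had the members' direction in 4 of the 5 comparisons. Of 81, 80 were up-regulated in libraries labelled *eat-2* (median log2 fold change 0.41) and 80 in WT at 25 °C (0.44), 68 were down-regulated and 1 up-regulated in those labelled *glp-1* (-0.43), and 18 were up-regulated in those labelled *osm-5* (73 without replicate 3). In libraries labelled *ife-2* they went the other way from the members, with 51 up-regulated and 4 down-regulated (0.31). The ratio of the members' summed level to the summed cytosolic level was 1.78%, 2.27% and 2.47% in libraries labelled *ife-2*. WT at 20 °C had 3.06%, 3.33% and 3.42%, so that these groups did not overlap. In those labelled *glp-1* the ratio was 2.55%, 2.77% and 3.00%, against 2.82%, 2.97% and 3.30% in WT at 25 °C, and the groups overlapped.

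Genes of the mitochondrial unfolded protein response gave mixed counts. Of 10, the chaperone gene *hsp-60* was up-regulated in libraries labelled *eat-2* (0.48) and in WT at 25 °C (0.57) and was down-regulated in the *glp-1* (-0.75) and *ife-2* (-0.62) groups by label; in those labelled *osm-5* it did not pass the test (0.16), and without replicate 3 it was up-regulated (0.28). The chaperone gene *hsp-6* was down-regulated in the *eat-2* (-0.59), *ife-2* (-1.56) and *osm-5* (-0.90, or -0.79 without replicate 3) groups by label, and in WT at 25 °C (-0.60). In all, 2 were up-regulated and 4 down-regulated in libraries labelled *eat-2*, 1 and 7 in those labelled *ife-2*, 0 and 5 in those labelled *osm-5* (2 and 8 without replicate 3), 0 and 1 in those labelled *glp-1*, and 2 and 5 in WT at 25 °C.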

How the data were processed

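Total RNA of whole worms was polyA-selected and sequenced in 36 libraries, spread over 3 flowcells. Per the paper's methods and the labels, the authors quantified reads with Salmon and tximport in bcbio-nextgen against Ensembl WBcel235 release 90 (STAR was used for quality checks) and deposited whole-number counts per gene; tool versions and the strand setting are not given in the sources used here. Gene names came from Ensembl release 115, which matched 45842 of 46093 identifiers.

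Members and gene lists were chosen with earlier results of these data known. Libraries were grouped by their labels, 6 a group. In each of 5 comparisons, genes reaching 10 counts in 6 or more of the 12 libraries were tested with edgeR 4.0.16 (R 4.3.3; TMM scaling, quasi-likelihood test), with Benjamini-Hochberg adjustment over all genes tested and a threshold of 0.01. The labels call the samples biological replicates. Named members were, in each comparison, the 4 with the largest rise and the 4 with the largest fall among those called, *mrps-5*, and the 3 highest and 3 lowest by CPM per kilobase over the 36 libraries; any other member named was chosen after its values were seen. Promoter and protein sequences were not analysed here. CPM use TMM library sizes; summed levels and targeted genes use 1 scaling over the 36 libraries. The 35524715 to 55878280 counts per library limit precision, and no member fell under 322 counts in any. Of the 630 pairs of libraries, none held identical counts, and every pair differed by more than counting noise. The procedure was tested on simulated counts. The changes planted there were larger than those of any member outside the libraries labelled *osm-5*. That test therefore does not show how well changes of the members' size are found. The same replicate number did not pair samples across groups. Alternatives were DESeq2 1.42.0, its size factors, library totals alone, no filter, 1 model of all 36 libraries, a replicate block, leaving out each library and, chosen after seeing the data, scaling within 20 bins of exon length, all libraries but replicate 3 labelled *osm-5*, and members without shared exon bases.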

Additional observations from a re-analysis of the deposited data

Results flagged for a closer look

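Values of 22 named members and of the summed level were searched, group by group, for a library far from the other 5: the gap to its nearest neighbour over the whole range, above Dixon's 95% critical value. Of 138 such tests 30 passed, where chance alone gives about 1 in 20 for independent tests. These tests share libraries and are not independent, so the 30 cannot be judged by that rate. Replicate 3 labelled *osm-5* gave 17 of the 30, and it also put *mrpl-36* and *mrps-24* among the named members. In CPM scaled over all 36 libraries, that library was the highest of its group for *mrpl-12* (347), *mrpl-15* (231), *mrpl-35* (372), *mrpl-36* (1905), *mrpl-46* (77.6), *mrpl-55* (144), *mrps-7* (85.3), *mrps-11* (242), *mrps-14* (70.1), *mrps-17* (587), *mrps-23* (469), *mrps-24* (1781), *mrps-25* (94.1) and the summed members (16236). It was the lowest for *mrpl-44* (195), *mrps-30* (38.9) and *mrps-31* (25.7).

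Replicate 2 labelled *ife-2* was the highest of its group for *mrpl-36* (13.1), *mrps-11* (27.3) and *mrps-24* (24.6) and the lowest for *mrps-30* (28.5) and *mrps-31* (21.3). Protein-coding genes of up to 763 exon bases had a median log2 difference from WT at 20 °C of 0.293 in that library. The other libraries labelled *ife-2* had 0.018 to 0.124. In libraries labelled *eat-2*, replicate 2 was high for *mrpl-55* (19.8) and replicate 4 for *mrps-25* (34.6) and *mrps-31* (48.6). In those labelled *glp-1*, replicate 4 was low for *mrpl-39* (18.4) and replicate 1 stood apart for *mrps-30* (62.2). In WT at 25 °C replicate 2 was low for *mrps-30* (68.1). In WT at 20 °C replicate 4 was high for *mrps-23* (15.1) and replicate 5 low for *mrps-34* (24).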

How the results depend on the processing

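Alternatives kept the direction of every comparison's member median. With library totals alone, up-regulated members numbered 21 (median 0.15) in libraries labelled *eat-2*, 0 (-0.88) in those labelled *ife-2*, 0 (0.13) in those labelled *osm-5* and 16 (0.17) in WT at 25 °C, and the median was -0.36 in those labelled *glp-1*. The median member level was then 18.3, 28.8 and 35.3 CPM in libraries labelled *ife-2* and *glp-1* and in WT at 20 °C, against 20.7, 25.8 and 31.4. All 36 libraries in 1 model gave 18 up-regulated in libraries labelled *eat-2*, 1 rising and 33 falling (-0.46) in libraries labelled *ife-2*, 44 in those labelled *osm-5*, 38 down-regulated in those labelled *glp-1* and 27 in WT at 25 °C. In libraries labelled *ife-2*, the up-regulated count and median were 0 and -0.63 with DESeq2 and with its size factors, 1 and -0.47 without a filter, 0 and -0.55 with length-binned scaling and 1 and -0.47 without replicate 3 labelled *osm-5* in the common model. In libraries labelled *osm-5* the up-regulated count was 21 with DESeq2, 3 without a filter and 41 (median 0.22) in that model, and the median 0.23 with length-binned scaling. Leaving out 1 library gave 41 to 54 up-regulated in libraries labelled *eat-2*, 3 to 4 rising and 50 to 55 falling (-0.42 to -0.34) in those labelled *ife-2*, 4 to 51 (0.22 to 0.85) in those labelled *osm-5*, 65 to 67 down-regulated in those labelled *glp-1* and 46 to 56 in WT at 25 °C. With the replicate block these were 39, 4 and 50, 0, 63 and 30; at most 3 of 6 same-numbered pairs correlated above 0.1, so the numbers do not pair samples. With totals alone, signs turned for *mrpl-44* (-0.15), *mrpl-55* (-0.20), *mrps-23* (-0.22) and *mrps-14* (-0.24) in libraries labelled *ife-2*, *mrps-34* (-0.020) and *mrps-5* (-0.20) in those labelled *osm-5* and *mrps-5* (-0.025) in WT at 25 °C; with length-binned scaling, for *mrpl-55* (-0.037) and *mrps-23* (-0.073) in libraries labelled *ife-2*. The 50 members that share no exon bases kept the direction and about the share of calls in all 5 comparisons. Relative to all genes, the median lay, over all these settings, at 0.22 to 0.28 in libraries labelled *eat-2*, -0.62 to -0.49 in those labelled *ife-2*, 0.19 to 0.80 in those labelled *osm-5*, -0.62 to -0.48 in those labelled *glp-1* and 0.27 to 0.41 in WT at 25 °C. The cause of these differences was not tested.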
